A study of Rattus norvegicus with 22 samples.

Results

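The stromal cells of the rat tongue were followed through 10 marker genes of fibroblasts, myofibroblasts and smooth muscle: Acta2, Tagln, Myh11, Cnn1, Pdgfra, Pdgfrb, Fap, Pdpn, Thy1 and Dcn. They were found by gene symbol among the 19167 symbols measured, and where a gene had several probes the brightest over the 22 arrays was taken. The 10 genes had 12 probes, since Myh11 and Pdpn had 2 each, and every one of the 10 was well above background on all 22 arrays.

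Each of 11 rats gave a piece of oral squamous cell carcinoma (OSCC) of the tongue and a piece of adjacent, phenotypically normal tongue. The rats, males of the F344 strain about 33 weeks old, had drunk water with 20 ppm of the carcinogen 4-nitroquinoline-1-oxide (4-NQO) over 10 weeks, and tissue was taken 23 to 26 weeks after exposure began. The normal pieces came from those exposed rats as well, although the titles of all 22 arrays carry the word untreated and the normal pieces are labelled with no treatment, so no rat without 4-NQO was compared. Expression was read on one-color Agilent arrays with 30367 probes, of which 48.4% to 56.1% were well above background on the normal arrays and 52.3% to 65.5% on the OSCC arrays. Levels are log2 signals minus the 75th percentile of the same array, and levels of different genes are not set against each other. The pieces were whole tissue, in which fewer cells of a type and less RNA per cell cannot be told apart.

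Fibroblasts make and remodel the collagenous matrix, and in wounds and tumors some of them become myofibroblasts, which assemble contractile fibers from smooth muscle actin. Smooth muscle cells and pericytes of the vessel wall carry the same actin together with smooth muscle myosin and calponin, which fibroblasts mostly lack. The receptors for platelet-derived growth factor (PDGF) are found on fibroblasts (alpha) and on pericytes and activated fibroblasts (beta), and carcinoma-associated fibroblasts are often recognized by fibroblast activation protein, podoplanin and Thy-1.

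The markers did not move together in OSCC. Fap, Pdpn and Dcn were up-regulated and Myh11 was down-regulated, whereas Acta2, Tagln, Cnn1, Pdgfra, Pdgfrb and Thy1 did not pass the test. A gene was called when limma gave an adjusted p below 0.05 and the change was at least 2-fold, with rat and tissue as terms. Of the 10 genes, 3 were called higher, beside 1434 of all 19167 gene symbols (7.48%), and 1 was called lower, beside 1388 (7.24%). The median difference of the 10 was 0.46 on the log2 scale, against -0.21 over all gene symbols. None of the 10 had its OSCC arrays all above or all below the normal arrays, which 317 gene symbols (1.65%) did.

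Scan day bears on all of these values. The 11 normal arrays and the OSCC arrays of rats 4 and 9 shared a scan day, whereas the remaining 9 OSCC arrays were read on a different one. Each slide held 1 tissue. With scan day as a further term, which leaves the difference to the pairs of rats 4 and 9, none of the 10 genes was called at either an adjusted or an unadjusted p below 0.05. Under that term 3 of 19167 gene symbols (0.0157%) were called by adjusted p and 5599 (29.2%) by unadjusted p and 2-fold. The mean change in those 2 pairs was 1.57 for Fap, 1.6 for Pdpn, 1.01 for Dcn and -1.07 for Myh11, and in the other 9 pairs it was 1.23, 1.48, 1.19 and -1.42. For the called genes the pairs scanned within 1 day thus moved the same way as the rest, whereas Tagln (-0.10 in the 2 pairs, 0.28 in the 9) and Cnn1 (0.22 and -0.52) took opposite signs. Thy1 differed by 0.57 in the 2 pairs and 1.40 in the 9, Acta2 by 0.53 and 0.20, Pdgfra by 0.80 and 0.42, and Pdgfrb by 0.57 and 0.39.

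**Figure D1:**
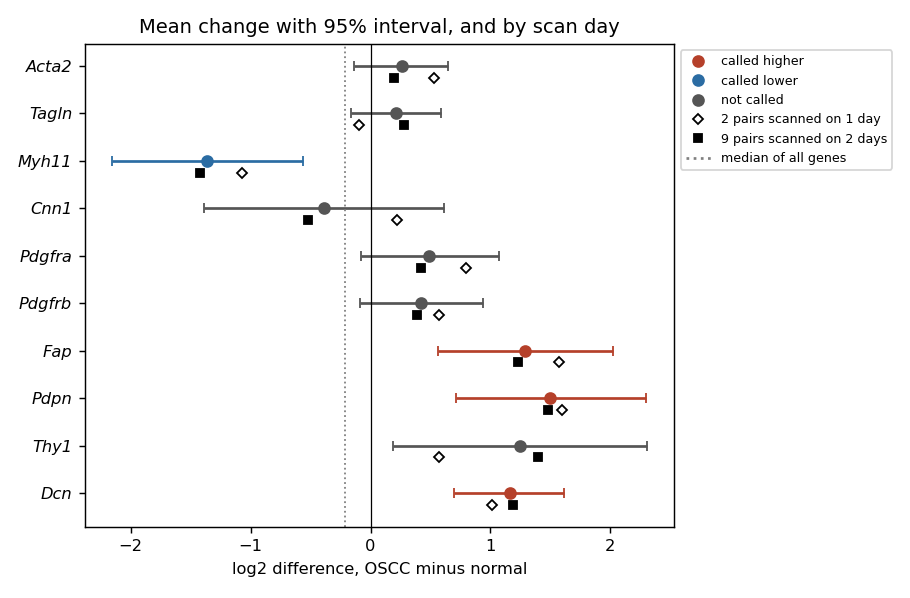
Mean log2 difference, OSCC minus normal, of the 10 markers (round points) with the 95% interval of the limma fit over 11 rats, beside the mean of the 2 pairs scanned on 1 day (diamonds) and of the 9 other pairs (squares). The dotted line is the median of all gene symbols, -0.21. The intervals of Fap, Pdpn and Dcn lie above 0, as does that of Thy1, which missed the adjusted threshold, and that of Myh11 lies below 0.

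Among the contractile genes, Acta2 encodes smooth muscle alpha-actin, the usual label of myofibroblasts. Its level ran from 1.10 to 2.65 on the normal arrays, with a median of 1.68, and from 1.29 to 2.99 on the OSCC arrays, with a median of 1.86. The ranges overlapped, and 10 of 11 OSCC arrays lay within the normal range. The mean difference was 0.26 (SE 0.18, 11 pairs, adjusted p = 0.25), higher in 7 of 11 rats, and its 95% interval of -0.14 to 0.65 lies below a 2-fold rise. The array annotation gives the Acta2 probe no position in the rat genome (rn4).

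Tagln, which encodes the actin-binding protein transgelin (SM22-alpha), gave a like picture. The normal arrays lay between 2.16 and 3.42, with a median of 2.88, and the OSCC arrays between 2.30 and 3.98, with a median of 3.29. Its mean difference was 0.21 (SE 0.17, adjusted p = 0.318), with 5 rats higher and 6 lower and a 95% interval of -0.16 to 0.59. The probe lies at chr8:48902736-48903116 (rn4). Rats 13 and 24, at 1.18 and 1.38, were the only ones in which Tagln changed by more than 1 on the log2 scale.

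Myh11, the smooth muscle myosin heavy chain, fell. On the normal arrays its level was 1.60 at the lowest, 2.12 at the median and 3.09 at the highest. On the OSCC arrays these values were -0.38, 0.96 and 2.85. Of the OSCC arrays 8 lay below the lowest normal array and 3 within the normal range. The mean difference was -1.36 (SE 0.37, 95% interval -2.16 to -0.56, adjusted p = 0.0133), a 2.56-fold decrease seen in 10 of 11 rats. Rats 11, 13, 25 and 26 lost the most, with changes of -3.29, -2.41, -2.93 and -2.60, and rat 24 alone had more Myh11 in OSCC, by 1.12. The probe is at chr10:775993-776052 (rn4), and the dimmer one, at chr10:769544-770044, gave -1.33 (adjusted p = 0.0127) with 10 of 11 rats lower.

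Cnn1, calponin, restrains the actin-activated ATPase of myosin in smooth muscle. Its normal levels ran from -1.65 to 0.45 (median -0.63) and its OSCC levels from -2.95 to 1.65 (median -1.40), at chr8:21219991-21220050 (rn4). The mean difference of -0.39 had an SE of 0.46 (adjusted p = 0.494). That mean covers rats that went opposite ways: Cnn1 was higher in OSCC by 1.28, 0.84, 1.81 and 2.11 in rats 9, 16, 17 and 24, and lower by at least 0.85 in rats 4, 11, 13, 22, 25 and 26. In rat 21 it differed by 0.08.

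Myoepithelial cells, which surround salivary acini, also contain smooth muscle actin, myosin and calponin, and gland RNA differed greatly between the OSCC pieces. All 8 serous gland markers measured were called higher in OSCC, and their summed level, in multiples of the array's 75th percentile, ran from 0.234 to 2.89 in normal tissue and from 2.71 to 6310 in OSCC. The mean log2 change of these 8 genes was 12.26, 12.66, 13.61 and 13.02 in rats 9, 16, 17 and 24 and 11.66 in rat 4, and it was between 1.35 and 7.04 in the other 6 rats. These sizes are measured against normal arrays on which several gland genes were not well above background. The part of gland tissue in the Cnn1 and Myh11 values was not tested.

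**Figure D2:**
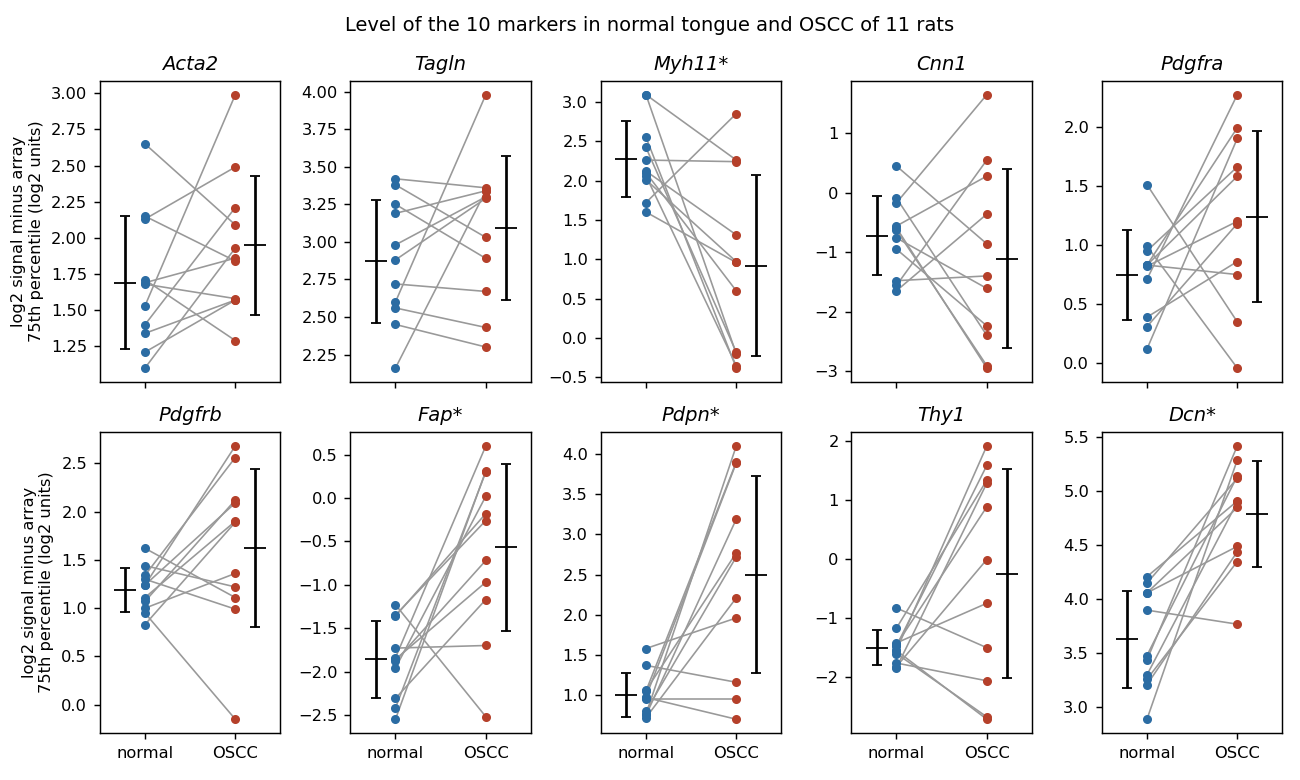
Level of each marker (log2 signal minus the array's 75th percentile) on the normal and OSCC arrays of 11 rats, with a line for each rat; bars are the mean ± SD of each tissue, and an asterisk marks a called gene. The vertical scales differ between genes. Dcn and Fap rose in 10 of 11 rats and Myh11 fell in 10 of 11, while the OSCC arrays of Pdpn, Thy1 and Pdgfrb spread far more widely than the normal ones.

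The 250 bases upstream of the annotated transcription start are shown for both contractile genes that RefSeq's promoter table (GRCr8) held, because smooth muscle genes are commonly switched on through CArG boxes, the elements bound by serum response factor. Capitals mark a CArG box in which at most 1 of the 6 inner bases is G or C, searched on both strands. The Acta2 stretch is chr1:241172504-241172753 on the minus strand and that of Cnn1 chr8:28908187-28908436 on the plus strand.
Acta2: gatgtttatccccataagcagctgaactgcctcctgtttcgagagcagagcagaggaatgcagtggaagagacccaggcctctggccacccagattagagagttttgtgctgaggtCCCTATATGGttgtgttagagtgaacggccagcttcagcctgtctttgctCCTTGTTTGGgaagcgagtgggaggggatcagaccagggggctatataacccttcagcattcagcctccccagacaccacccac
Cnn1: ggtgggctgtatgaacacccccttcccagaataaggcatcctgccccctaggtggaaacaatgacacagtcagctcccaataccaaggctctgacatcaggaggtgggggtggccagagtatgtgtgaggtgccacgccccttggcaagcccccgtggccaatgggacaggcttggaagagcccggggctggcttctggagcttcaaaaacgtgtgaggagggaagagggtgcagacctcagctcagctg
Acta2 held 2 such boxes, CCCTATATGG from 134 to 125 bases and CCTTGTTTGG from 84 to 75 bases before the start, and Cnn1 held none in this window. A CArG box of this looser kind was found in 2703 of 33469 promoters (8.08%), and one with only A and T inside in 501 (1.5%) and in none of the 5 markers whose promoters were listed. Acta2 and Cnn1 are the contractile markers for which a promoter could be shown. Their mean changes in OSCC were 0.26 and -0.39.

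The remaining contractile genes of smooth muscle were mostly lower in OSCC. Of 21 such genes measured, 12 were called lower, 1 higher and 8 neither, and the median difference was -1.12. The largest decreases were those of Hspb6, a small heat shock protein of muscle (-2.31, SE 0.51, adjusted p = 0.00424), Synpo2, an actin-binding protein (-2.01, SE 0.51, adjusted p = 0.00923), and Lmod1, leiomodin (-1.73, SE 0.51, adjusted p = 0.019). Lmod1 was well above background on 11 normal but only 4 of 11 OSCC arrays, and after normexp background correction it was not called (-0.35, adjusted p = 0.835). Smtn, smoothelin, was lower in all 11 rats (-1.29, adjusted p = 0.000362) and was named after its values were seen. Cald1, caldesmon, was the gene called higher (1.07, SE 0.22, adjusted p = 0.00304, 10 of 11 rats), although it lost that call when arrays were scaled by their median. By adjusted p alone 4 of the 21 genes were higher and 14 lower. Besides Cald1 the higher ones were Tpm2 (0.66, adjusted p = 0.00324), Cnn3 (0.68, adjusted p = 0.0197) and Itga8 (0.67, adjusted p = 0.0425), all below 2-fold.

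Many genes of that list, among them Hspb6, Synpo2, Des and Tpm1, are also active in skeletal muscle, which forms the bulk of the tongue. Of 14 skeletal muscle markers 10 were called lower in OSCC and 1, Myh2, higher, and their summed level was 1760 to 3570 in normal tissue and 106 to 3800 in OSCC. In rats 11, 13, 25 and 26 the mean log2 change of the skeletal muscle markers was -4, -4.12, -4.07 and -2.89, and these were the rats with the deepest falls of Myh11. In rats 21, 22 and 24 the skeletal muscle markers were higher by 1.09, 0.87 and 1.01, and Myh11 changed by -1.04, -0.83 and 1.12. The part of muscle content in these values was not tested.

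The regulators of the contractile genes gave no call. Of the 6 measured, Srf, serum response factor, differed by -0.30 (adjusted p = 0.0546), Mkl1, its actin-sensing cofactor, by 0.04, and Fhl2, a LIM-domain cofactor, by 0.93 (adjusted p = 0.0183), which is below 2-fold. Myocd, myocardin, the smooth muscle coactivator, did not stand well above background anywhere. Of 12 pericyte and mural cell genes 1 was called lower (8.33%, beside 7.24% of all gene symbols). That gene was Gucy1a3, a subunit of the nitric oxide receptor guanylate cyclase, at -1.76 (SE 0.35, adjusted p = 0.00244). It was well above background on 11 normal and 8 of 11 OSCC arrays and lost the call after normexp background correction (-0.61, adjusted p = 0.231). When arrays were scaled by their median, Notch3 (-1, adjusted p = 0.012) and Abcc9 (-1.08, adjusted p = 0.0017) were called lower as well. Rgs5, a G-protein regulator used as a pericyte marker, differed by 0.39 (adjusted p = 0.254). Cspg4, the NG2 proteoglycan of pericytes, differed by -0.56 (adjusted p = 0.00866), which is below 2-fold. By adjusted p alone 6 of the 12 pericyte and mural cell genes were lower and 0 higher.

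Both PDGF receptors had positive mean differences that did not pass the test. Pdgfra ran from 0.12 to 1.51 (median 0.83) on the normal arrays and from -0.04 to 2.27 (median 1.20) on the OSCC arrays, with 5 of 11 OSCC arrays above the highest normal one. Its mean difference was 0.49 (SE 0.27, adjusted p = 0.14), higher in 8 of 11 rats. Pdgfrb ran from 0.83 to 1.62 (median 1.24) in normal tissue and from -0.15 to 2.68 (median 1.89) in OSCC, with 6 OSCC arrays above the highest normal one and 1 below the lowest. Its mean difference was 0.42 (SE 0.24, adjusted p = 0.155), higher in 7 of 11 rats. Rats 17 and 21 had less of both receptors in OSCC, by -1.03 and -1.16 for Pdgfra and by -1.09 and -0.51 for Pdgfrb. Rat 22 also had less of both (-0.08 and -0.31), and rat 24 had less of Pdgfrb only (-0.22). The probes lie at chr14:35369708-35369767 (Pdgfra, 10 spots per array) and chr18:57053387-57053446 (Pdgfrb) of rn4.

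Of the 4 PDGF ligands, Pdgfc, which acts mainly through the alpha receptor, was called higher (1.41, SE 0.19, adjusted p = 0.000342) and was higher in all 11 rats. It was well above background on 7 of 11 normal and 11 of 11 OSCC arrays, and after normexp background correction it was not called (0.51, adjusted p = 0.259). Pdgfa, the classical ligand of the alpha receptor, differed by 0.23 (adjusted p = 0.201). Pdgfb, the ligand by which vessels recruit pericytes, differed by 0.26 (adjusted p = 0.419), and Pdgfd did not stand well above background anywhere.

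Fap encodes a membrane serine protease that cleaves collagen fragments. Its level was -2.55 at the lowest, -1.86 at the median and -1.23 at the highest on the normal arrays, and -2.52, -0.26 and 0.60 on the OSCC arrays. Of the OSCC arrays 9 lay above the highest normal array and 2 within the normal range. Fap rose by 1.29 (SE 0.34, 95% interval 0.56 to 2.02, adjusted p = 0.0108), or 2.45-fold, and was higher in 10 of 11 rats. Rat 17 went the other way, by -1.29, and rat 21 differed by 0.03, while rats 11, 13 and 25 rose by 2.86, 2.72 and 2.44. The probe is at chr3:44458727-44458786 (rn4). None of the 6 related peptidases was called. Dpp8 and Prep differed by -0.26 and 0.18, and Dpp9 differed by -0.65 (adjusted p = 0.0021), under 2-fold. Dpp4, the closest relative of Fap, cleared background well on 1 array of normal tissue and 4 of OSCC, and Dpp6 and Dpp10 on none.

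Pdpn encodes podoplanin, a mucin-like membrane protein that links to the actin cortex and occurs on activated fibroblasts, lymphatic endothelium and basal keratinocytes. Normal arrays spanned 0.72 to 1.58 (median 0.97) and OSCC arrays 0.70 to 4.10 (median 2.72), so 8 OSCC arrays were above every normal one. The mean rise was 1.5 (SE 0.37, 95% interval 0.71 to 2.30, adjusted p = 0.00767), or 2.84-fold, with 9 of 11 rats higher. It was above 2.4 in rats 11, 13, 16 and 25 (3.33, 2.91, 2.44 and 2.85), and between -0.28 and 0.38 in rats 17, 21, 22 and 24. The probe lies at chr5:162142262-162142321 (rn4). The dimmer probe, at chr5:162143371-162144357, rose by 2.03 (SE 0.36, adjusted p = 0.00146) in 10 of 11 rats, with 10 OSCC arrays above every normal one.

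Markers of the other cells that carry podoplanin were mostly not called. None of 5 lymphatic endothelial markers was called, with summed levels of 1.65 to 4.99 in normal tissue and 1.28 to 5.60 in OSCC, and Prox1, which defines these vessels, did not stand well above background anywhere. Of 6 basal and myoepithelial markers only Krt15 was called, and it was lower (-2.54, SE 0.23, adjusted p = 7.02e-05). Of these 6, 3 had positive differences, the largest that of Krt17 (0.96, adjusted p = 0.132, 9 of 11 rats higher). Their sums ran from 296 to 428 in normal tissue and from 30 to 881 in OSCC. Within rats the sum was higher in OSCC, as in rat 13 (410 to 881), except in 3 rats. These were rats 17 (309 to 288), 22 (320 to 206) and 24 (409 to 30). The part of keratinocytes or tumor cells in the Pdpn signal was not tested. Among 5 partners of podoplanin, Msn, moesin, which ties membrane proteins to actin, was called higher (1.67, SE 0.29, adjusted p = 0.00121), while its relatives Ezr and Rdx differed by 0.02 and -0.29. Cd44, the hyaluronan receptor, differed by 0.86 (adjusted p = 0.0136), which is below 2-fold.

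The upstream 250 bases of Fap and Pdpn, the called genes with a promoter in the RefSeq table, are shown to set side by side the start regions of both. Capitals mark GC boxes (GGGCGG, either strand), the letters bound by Sp1. They cover chr3:67616092-67616341 for Fap and chr5:160918960-160919209 for Pdpn, both on the minus strand of GRCr8.
Fap: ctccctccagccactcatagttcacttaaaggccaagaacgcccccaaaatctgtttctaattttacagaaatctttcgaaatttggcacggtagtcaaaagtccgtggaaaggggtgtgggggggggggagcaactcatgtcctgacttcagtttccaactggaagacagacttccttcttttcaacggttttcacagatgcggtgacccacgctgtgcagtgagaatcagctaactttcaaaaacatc
Pdpn: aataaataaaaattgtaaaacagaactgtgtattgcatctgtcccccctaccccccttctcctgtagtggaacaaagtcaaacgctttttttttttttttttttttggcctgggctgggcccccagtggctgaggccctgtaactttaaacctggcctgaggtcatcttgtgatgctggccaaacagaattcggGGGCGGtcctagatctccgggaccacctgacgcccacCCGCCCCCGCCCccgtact
Pdpn held 3 GC boxes, the first from 56 to 51 bases before the start and the other 2 adjoining each other between 19 and 8 bases before it. The Fap window held none. Of all 33469 promoters 10197 (30.5%) held a GC box in this window. AP-1 letters (TGANTCA, either strand) were found in 2122 promoters (6.34%) and, among the 5 markers listed, only in that of Pdgfra.

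Thy1 encodes a surface glycoprotein of fibroblasts, neurons and thymocytes. Of the 10 markers it had the widest spread in OSCC (SD 1.77). Normal arrays lay between -1.84 and -0.83 (median -1.54), whereas OSCC arrays lay between -2.71 and 1.91 (median -0.01), with 7 above the highest and 3 below the lowest normal array. The mean difference was 1.25 (SE 0.49, 95% interval 0.19 to 2.31), or 2.38-fold, and it missed the threshold with an adjusted p of 0.0535. Rats 11, 25 and 26 were higher by more than 3 on the log2 scale (3.05, 3.45 and 3.12), and rats 4, 17, 22 and 24 were lower (-0.67, -1.07, -0.30 and -1.16). Leaving out any one of those 4 rats brought Thy1 past the threshold, with adjusted p of 0.0482, 0.0275, 0.0413 and 0.0249. The probe lies at chr8:47031186-47031646 (rn4).

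Dcn encodes decorin, the small proteoglycan that coats collagen fibrils and binds TGF-beta. The normal arrays lay between 2.89 and 4.21 (median 3.48) and the OSCC arrays between 3.77 and 5.42 (median 4.90), and 10 of 11 OSCC arrays were above the highest normal one. Dcn rose by 1.16 (SE 0.21, 95% interval 0.70 to 1.61, adjusted p = 0.00151), or 2.23-fold, in 10 of 11 rats. Rat 17 differed by -0.13, and the rest rose by 0.43 to 2.39. The SD of the OSCC arrays, 0.49, was close to that of the normal arrays, 0.45, unlike the other called genes. When arrays were scaled by their median, Dcn rose by 0.96, just under 2-fold. The probe, with 10 spots per array, lies at chr7:35037331-35041132 (rn4).

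Decorin's relatives moved unevenly. Of 9 small leucine-rich proteoglycans measured, 3 were called higher and none lower, with a median difference of 0.58. Fmod, fibromodulin, rose by 3.22 (SE 0.36, adjusted p = 0.00017), Lum, lumican, by 1.67 (SE 0.36, adjusted p = 0.00385) and Bgn, biglycan, by 1.10 (SE 0.24, adjusted p = 0.00443), and all of these organize collagen fibrils. When arrays were scaled by their median Bgn lost its call (0.90, adjusted p = 0.0087) and Omd, osteomodulin, was called lower (-1.29, adjusted p = 0.0285). Ogn and Aspn, osteoglycin and asporin, differed by -0.65 (adjusted p = 0.166) and -0.64 (adjusted p = 0.125).

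Genes of activated fibroblasts were mostly called higher. Of 23 measured, 14 were called higher and none lower, with a median of 1.20. Postn, periostin, rose by 4.79 (SE 0.71, adjusted p = 0.000554, 10 of 11 rats), Cthrc1, a secreted collagen-repeat protein, by 4.19 (SE 0.45, adjusted p = 0.000153, 11 of 11) and Lox, lysyl oxidase, which crosslinks collagen, by 4.07 (SE 0.65, adjusted p = 0.000788, 11 of 11). On the normal arrays Cthrc1 was well above background on 2 and Lox on 4 of 11. Vim and S100a4, often used to label fibroblasts, differed by 0.21 (adjusted p = 0.314) and 0.02 (adjusted p = 0.945). By adjusted p alone 16 of the 23 genes were higher and 1, Itga11, was lower (-0.66, adjusted p = 0.0452, 9 of 11 rats lower). Lrrc15 differed by -1.09 (adjusted p = 0.178), Mmp11 by 0.24 (adjusted p = 0.304) and Cdh11 by 0.38 (adjusted p = 0.206). In rat 17, where Fap and both PDGF receptors were lower, the mean change of the 23 genes was -0.65, whereas in rats 11, 13 and 25 it was 3.12, 2.86 and 2.97.

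Genes of resting fibroblasts went both ways. Of 17 measured, 2 were called higher and 2 lower, with a median of 0.06. These shares, 11.8% each, stand beside 7.48% (higher) and 7.24% (lower) of all gene symbols. Mgp, matrix Gla protein, an inhibitor of calcification, rose by 2.01 (SE 0.34, adjusted p = 0.00108), and Cd34, a surface sialomucin of resting fibroblasts and of vessels, rose by 1.44 (SE 0.31, adjusted p = 0.00399) but was well above background on only 1 of 11 normal and 8 of 11 OSCC arrays, and lost its call after normexp background correction (0.33, adjusted p = 0.785). Abca8a, a lipid transporter, fell by 1.67 (SE 0.40, adjusted p = 0.00663), and Gsn, the actin-severing protein gelsolin, fell by 1.34 (SE 0.33, adjusted p = 0.00796). Of 10 endothelial markers none was called, and their summed level was 14.3 to 20.5 in normal tissue and 6.04 to 20.8 in OSCC. By adjusted p alone 4 of these 10 were lower, all by less than 2-fold, and 0 higher.

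**Figure D3:**
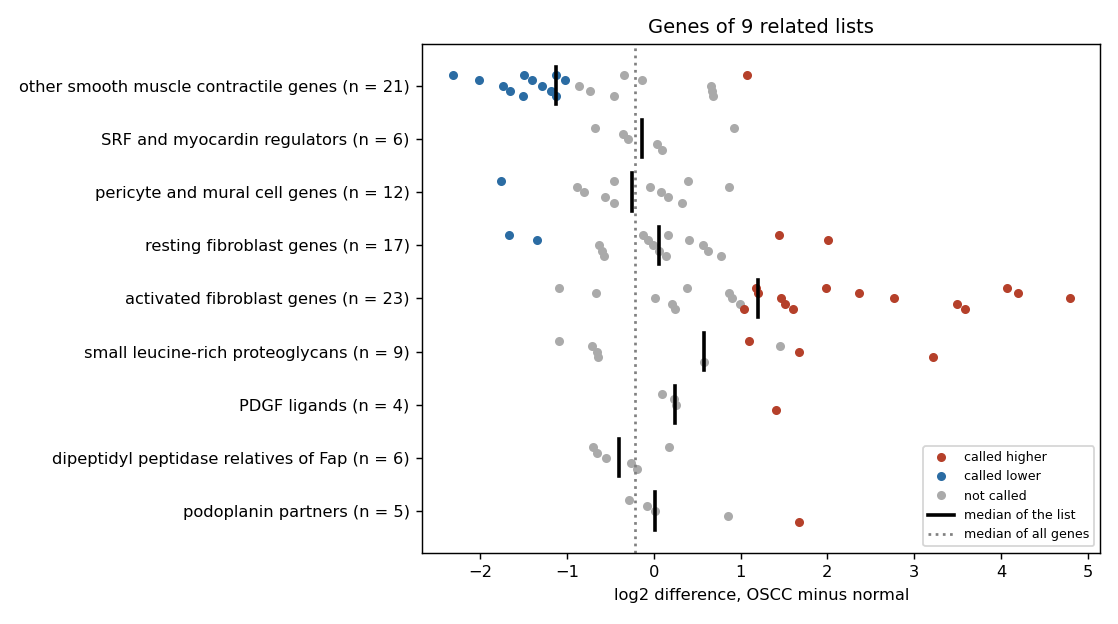
Log2 difference, OSCC minus normal, of each gene (points) in 9 lists related to the markers, with the median of each list (black bar) and of all gene symbols (dotted line, -0.21). Red points were called higher, blue lower and grey neither. Smooth muscle contractile genes lie mostly to the left (median -1.12) and activated fibroblast genes mostly to the right (median 1.20).

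Whether the markers changed by different amounts in the same rats was tested for all 45 pairs of markers by a two-sided exact sign-flip permutation test over the 11 rats, with Benjamini-Hochberg adjustment over the 45. The difference passed an adjusted p of 0.05 for 17 pairs. The change of Myh11 lay below that of Acta2 in 11 of 11 rats, by 1.62 on average (exact permutation p = 0.000977, the smallest 11 rats can give, adjusted p = 0.0146), and below that of Tagln in 10 of 11, by 1.57 (adjusted p = 0.0165). It also lay below Cnn1 in 10 of 11 rats, with a mean difference of -0.97 (adjusted p = 0.0165), so the contractile genes themselves differed. Dcn exceeded Tagln in all 11 rats (Tagln minus Dcn -0.94, adjusted p = 0.0146) and exceeded Acta2 in 9 of 11 (Acta2 minus Dcn -0.90, adjusted p = 0.0314).

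Within the fibroblast genes, Fap, Pdpn and Dcn each changed more than either PDGF receptor. The receptor minus marker differences ran from -0.67 (Pdgfra minus Dcn, adjusted p = 0.0165) to -1.08 (Pdgfrb minus Pdpn, adjusted p = 0.0146), and Pdgfrb lay below Pdpn in 11 of 11 rats. No difference among Fap, Pdpn, Thy1 and Dcn passed, nor between Pdgfra and Pdgfrb, nor between Acta2 and either Tagln or Cnn1. With rats 21, 22 and 24 left out none of the 45 passed; the smallest exact p that 8 rats allow is 0.00781, and the lowest adjusted p was then 0.0541.

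The rats differed from one another in a way that ran through many of the markers. Rats 11, 13, 25 and 26 combined falls of Myh11 by at least 2.41 with rises of Fap, Pdpn and Thy1 by at least 1.18, and rat 17 had lower Fap, Thy1 and both receptors with almost no change of Myh11 (-0.02). Rats 9 and 16 had rises of Fap (1.16 and 1.09), Pdpn (1.49 and 2.44) and Thy1 (1.82 and 2.33). Their changes of Myh11 were only -0.63 and -0.82. In rats 11, 13, 25 and 26 the skeletal muscle markers were lower by the amounts given above. In rats 21, 22 and 24, where the skeletal muscle markers were higher, Pdpn changed by 0.38, 0 and -0.22, Fap by 0.03, 1.14 and 0.88, and Thy1 by 0.67, -0.30 and -1.16. Pdgfrb changed by -0.51, -0.31 and -0.22 in these 3 rats and by 1.45, 0.85, 1.23 and 1.05 in rats 11, 13, 25 and 26. Dcn changed by 0.43, 1.08 and 1.6 in rats 21, 22 and 24. Its changes in rats 11, 13, 25 and 26 were 2.39, 1.66, 1.98 and 0.96. The changes of the skeletal muscle markers left a gap of 35.9% of their range between rats, so no r is given. The part of muscle content in the values of Fap, Pdpn, Thy1, Dcn and both receptors, and in the relations given below, was not tested. Rat 24 was higher for Acta2, Tagln, Myh11 and Cnn1, by 1.46, 1.38, 1.12 and 2.11, and lower for Thy1. Spread was greater in OSCC than in normal tissue for all 10 markers, with SD ratios from 1.05 (Acta2) and 1.07 (Dcn) to 4.51 (Pdpn) and 5.96 (Thy1). That direction was general, since the ratio was above 1 for 83.9% of the 9555 gene symbols well above background on all arrays, with a median of 1.76.

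**Figure D4:**
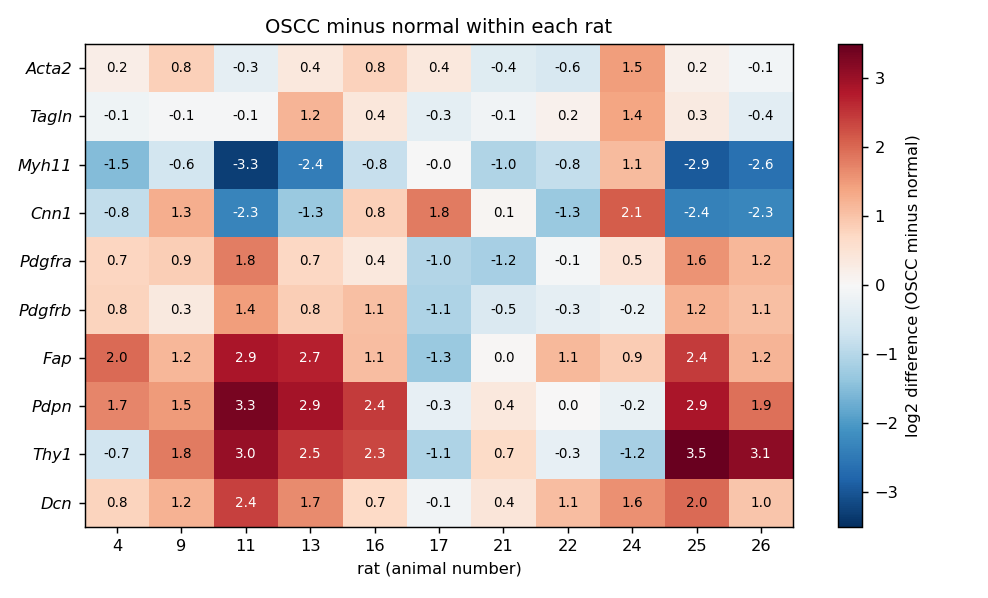
Log2 difference, OSCC minus normal, of each marker (rows) in each of the 11 rats (columns), printed in the cells and coloured red for higher and blue for lower in OSCC. Rats 11, 13, 25 and 26 show deep blue for Myh11 and red for Fap, Pdpn and Thy1, and rat 24 shows red for the 4 contractile genes.

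Relations between the changes of 2 markers over the 11 rats were computed for the 45 pairs, with 1e+05 permutations, two-sided, and adjustment over the 45. In 35 of them the changes of at least 1 of the 2 markers left a gap of more than 30% of their range, and no r is given. Such a gap can set a single rat apart. For Fap it lay between rat 17 (-1.29) and rat 21 (0.03), the next lowest. Of the other 10, 4 passed. Of these 4, 2 passed after normexp background correction (Myh11 with Cnn1 and with Thy1), and 2 passed without rats 21, 22 and 24 (Myh11 with Cnn1 and with Pdgfrb). Myh11 and Cnn1 varied together (r = 0.92, permutation p = 6e-05, adjusted p = 0.00135; rho = 0.94, permutation p = 0.00011, adjusted p = 0.00495), and without the 2 rats farthest from the median r was 0.89. Rats thus kept a common order of Myh11 and Cnn1, although Myh11 fell on average and Cnn1 did not pass the test.

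Myh11 ran against Pdgfrb (r = -0.76, permutation p = 0.00712, adjusted p = 0.0229; rho = -0.72, permutation p = 0.0168, adjusted p = 0.0444; r = -0.75 without 2 rats) and against Thy1 (r = -0.80, permutation p = 0.00356, adjusted p = 0.0146; rho = -0.81, permutation p = 0.00395, adjusted p = 0.0197; r = -0.72 without 2 rats). Pdgfrb and Thy1 varied together (r = 0.80, permutation p = 0.00463, adjusted p = 0.016; rho = 0.80, permutation p = 0.00474, adjusted p = 0.0213; r = 0.80 without 2 rats). Values of the same rat share its 2 arrays and their scaling. Within the 2 pairs scanned on 1 day no relation can be computed.

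**Figure D5:**
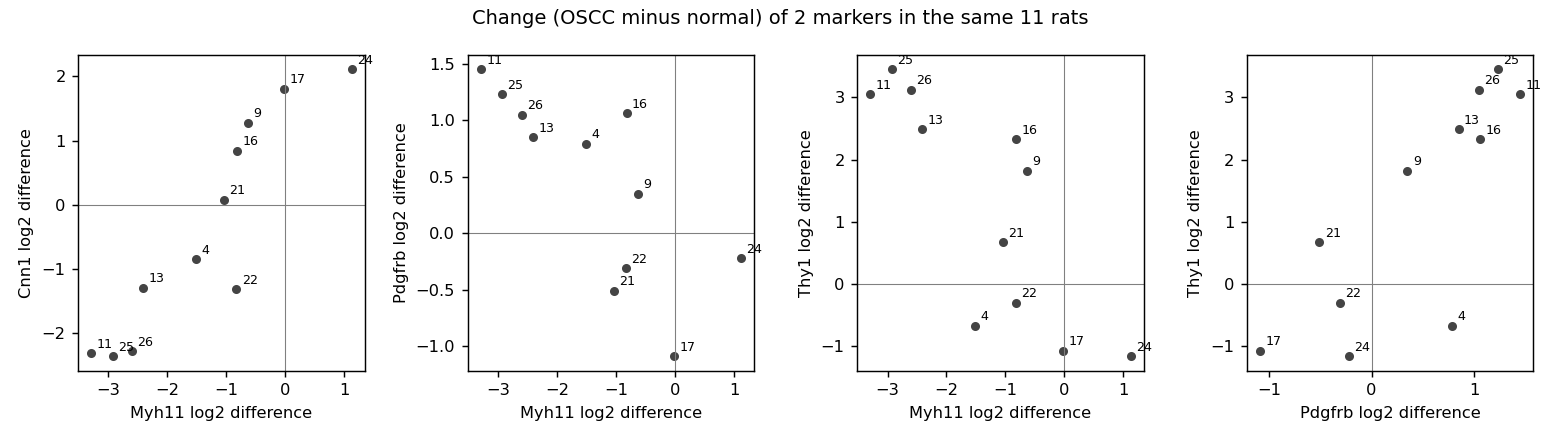
Log2 difference, OSCC minus normal, of a pair of markers in each of the 11 rats (points, with the animal number), for the 4 relations that passed with all rats. Cnn1 climbs with Myh11 (r = 0.92), Pdgfrb and Thy1 decline as Myh11 climbs (r = -0.76 and -0.80), and Thy1 climbs with Pdgfrb (r = 0.80).

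Markers of other cells changed along with some of the stromal ones. Of 7 macrophage markers 6 were called higher in OSCC, with summed levels of 3.96 to 8.23 in normal tissue and 7.57 to 33.3 in OSCC. Of 9 T cell markers 6 were called higher, with sums of 0.959 to 3.48 and 1.55 to 7.38, and of 6 Schwann cell markers 5 were called lower, with sums of 10.4 to 18.3 and 1.13 to 18.5. Relations of the 10 markers with the mean change of 9 such lists were computed 90 times and adjusted over the 90, and 70 of them had a gap of the same width. Of the other 20, 8 passed by Pearson's r and 7 of these by Spearman's rho as well.

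Thy1 followed the T cell markers (r = 0.88, permutation p = 0.00038, adjusted p = 0.00675; rho = 0.87, permutation p = 0.00101, adjusted p = 0.0151; r = 0.82 without 2 rats). Pdgfrb and Dcn followed the macrophage markers (r = 0.90 and 0.86, permutation p = 0.00012 and 0.00046, adjusted p = 0.0054 and 0.00675; rho = 0.89 and 0.82, permutation p = 0.00044 and 0.00314, adjusted p = 0.0117 and 0.0257; r = 0.78 and 0.73 without 2 rats). Myh11 followed the Schwann cell markers (r = 0.88, permutation p = 0.00055, adjusted p = 0.00675; rho = 0.85, permutation p = 0.00144, adjusted p = 0.0185; r = 0.77 without 2 rats). Thy1 passed with the macrophage markers (r = 0.74, permutation p = 0.00969, adjusted p = 0.0435; rho = 0.80, permutation p = 0.00456, adjusted p = 0.0316) and the Schwann cell markers (r = -0.76, permutation p = 0.00783, adjusted p = 0.0415; rho = -0.75, permutation p = 0.00964, adjusted p = 0.0413). Pdgfrb passed with the T cell markers (r = 0.76, permutation p = 0.00778, adjusted p = 0.0415; rho = 0.76, permutation p = 0.00852, adjusted p = 0.0383). Myh11 passed with the T cell markers by r (-0.76, permutation p = 0.00742, adjusted p = 0.0415) but not by rho (-0.67, permutation p = 0.0284, adjusted p = 0.082). The part of leukocytes and of nerve in the marker values was not tested. Of 5 adipocyte markers none was called, with sums of 4.69 to 18.9 in normal tissue and 2.01 to 21.9 in OSCC.

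For each marker the genes with the most similar pattern of change over the 11 rats were sought among 9545 gene symbols well above background on all arrays. The values are the highest of many and are given without a test. The limit on gaps was not applied here, so a few rats can set an r. The changes of Acta2, Tagln, Pdgfra, Fap and Pdpn each left a gap of more than 30% of their range. Pdgfrb was matched by Sipa1, Pthlh and Col5a1 (r = 0.99 each), and Pdgfra by Spon1, Slit3 and Grk5 (0.96 each). Fap was nearest to Gpx7 (0.97), Col6a1 (0.96) and Dse (0.96), Pdpn to LOC685020, Ppie and Chsy1 (0.98 each), Thy1 to Mk1 (0.97), Cfl1 (0.96) and Tgfb1 (0.96), and Dcn to Fstl1, Csf1r and RGD1564614 (0.97 each). Col5a1 and Col6a1 are fibrillar and microfibrillar collagen chains, and Csf1r is the macrophage growth factor receptor. Myh11 was nearest to Sorbs2 (0.96), Crebl2 (0.95) and Rtn1 (0.95), and Cnn1 to Ntrk3 (0.97), RGD1310507 (0.95) and Tmed4 (0.93). The matches of Acta2 and Tagln were looser: Becn1 (0.88), RGD1307682 (0.82) and Fut8 (0.81) for Acta2, and Trib2 (0.91), Bbs10 (0.87) and Tgfb3 (0.85) for Tagln.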

How the data were processed

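RNA of 11 OSCC pieces and 11 adjacent normal tongue pieces was hybridized to one-color Agilent arrays. The authors' Feature Extraction software (9.5.3.1) subtracted background and spatial trends, which gave the deposited processed signal, a linear intensity not scaled between arrays. The deposited value table holds that signal over the array's 75th percentile, since 99.5% of entries of 0.5 or more matched it within 2%. Here control spots and 9196 outlier spots (0.975%) were left out, each probe was given the mean log2 signal of its spots, minus the 75th percentile of its array. No dim probe was removed. With limma 3.58.1 (R 4.3.3), rat and tissue were terms, and adjustment covered all 30367 probes. The authors used a paired t-test and a 2-fold limit; that test, with unadjusted and adjusted p, was tried as an alternative, as were normexp, quantile, median and scan day settings. The pair comes from 1 animal, and deviations of its tissues from the tissue means correlated between -0.21 and 0.24. Scripts were tested on simulated data. Precision is limited by the number of arrays.

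Markers and lists were chosen with earlier results of these data known. Outside the 10 markers, genes were named as the 3 largest called rises and 3 largest called falls of a list, or as the 3 most alike in pattern. Others named in the list accounts were picked after their values were seen. Of 186 list genes, 170 were matched by symbol, 3 by RefSeq accession, and 13 were not found.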

Additional observations from a re-analysis of the deposited data

How the results depend on the processing

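Under the other scalings, filters, tests and sets of rats, scan day apart, 230 of 240 marker values kept direction and call. The exceptions were Dcn under array median scaling (0.96) and 9 values of Thy1, which passed the threshold. Without rats 21, 22 and 24 Thy1 differed by 1.81 (adjusted p = 0.0139). Without the replicate block, that is without rat as a term, 2098 probes were called higher and 2129 lower, against 2083 and 2118 with it, and Thy1 was called as well (1.25, adjusted p = 0.0474); no other marker's call changed.

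With scan day as a term 0 markers were called higher and 0 lower, by adjusted and unadjusted p (the latter chosen after seeing the data), 0 and 3 of all probes were called by adjusted p, and 7655 were called lower by unadjusted p. Tagln turned to -0.10 and Cnn1 to 0.22. This term leaves 2 pairs, so its precision is low. Over the 9 other pairs, chosen after seeing the data, 3 markers were called higher and 1 lower.

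Normexp called 686 probes higher and 1015 lower. The limit to probes well above background tested 15311 probes, against 30367 in the main setting, and called 1107 higher and 1608 lower. Without rats 21, 22 and 24, 4285 were called lower and none of the 45 differences between markers (0) passed. Calls were 49.6% higher in the main setting, 32.8% under median scaling, 40.3% under normexp and 40.8% with dim probes left out; the median of all probes was -0.24, and -0.44 under median scaling and -0.03 under quantile normalization. Causes of these shifts were not tested. Of 126 list counts 116 stayed within 1.5 times, but many of these were 0 in the main setting and stayed 0. Under normexp, 9 activated fibroblast genes were called higher and 5 contractile genes lower. Leaving out 1 rat gave 13 to 24 differences past the threshold.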
